A study of Homo sapiens with 4 samples.

Results

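The microRNA clusters miR-302/miR-367 and miR-371 to miR-373 were represented by 13 of the 737 miRNA assays measured, 8 from miR-302/miR-367 and 5 from miR-371 to miR-373. Assays were taken by name: miR-302a to miR-302d, miR-367, miR-371 (with hsa-miR-371-3p), hsa-miR-372 and hsa-miR-373, with either arm of the hairpin; the prefix hsa, for human, is left off below. An asterisk marks the arm that the panel's older nomenclature treated as the minor one. The opposite arms of miR-302b, miR-367 and miR-372 were not analysed here.

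Mature miRNA was quantified by PCR in U2OS, an established human osteosarcoma cell line, in 4 samples with 1 sample per group, grown in medium with fetal bovine serum. The shDDX1 sample came from cells given a lentivirus that expresses a short hairpin RNA against DDX1, an RNA helicase, and the shNS sample from cells given a control hairpin. Both of these cultures were selected with puromycin at 2 ug/ml. The NCS sample came from cells exposed for 6 h to 500 ng/ml neocarzinostatin, an enediyne that breaks DNA, and the untreated sample from cells without it. The panels hold no assay for DDX1 mRNA, and the extent of the knockdown is not analysed here.

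MicroRNAs of both clusters are abundant in human embryonic stem cells and are lost as these cells differentiate, and miR-371 to miR-373 is also known as a marker of germ cell tumours. A mature miRNA pairs with target mRNAs mainly through its seed, the stretch from base 2 to base 8. The main arms of miR-302a to miR-302d, miR-372 and miR-373 share a seed, and the genes they repress include cell cycle inhibitors such as CDKN1A. Because osteosarcoma cells are not pluripotent, low levels of these miRNAs are the prior expectation, and wells loaded with water in place of sample are the natural reference.

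The mature sequences of the 6 assays with the shared seed are shown first, because their likeness bears on how separately the assays can read them. They are printed 5′ to 3′ from RefSeq (GRCh38.p14), with the seed in capitals.
miR-302b: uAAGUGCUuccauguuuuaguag
miR-302c: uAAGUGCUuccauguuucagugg
miR-302a: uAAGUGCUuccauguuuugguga
miR-302d: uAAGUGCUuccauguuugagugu
miR-372: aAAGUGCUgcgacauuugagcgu
miR-373: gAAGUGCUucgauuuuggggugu

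All 13 assays matched a RefSeq entry. The 4 main arms of miR-302 are 23 bases long and differ from each other at 2 or 3 positions, all near the 3′ end, so reading of one by the assay of another was possible and was not tested. The seed AAGUGCU occurs in 12 of 2370 human mature miRNA names in RefSeq, or 0.506%. Apart from these 6, they are miR-302e and the 3p arms of miR-520a to miR-520e, all 6 of which were on the panels.

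The remaining sequences are those of the assays that stood apart in a comparison, and of miR-367, whose seed differs from that of its cluster partners.
miR-302c*: uUUAACAUggggguaccugcug
miR-371-5p: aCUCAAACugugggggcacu
miR-371-3p: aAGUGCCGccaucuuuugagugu
miR-302a*: aCUUAAACguggauguacuugcu
miR-367: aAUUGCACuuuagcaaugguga
The seed of miR-371-3p, AGUGCCG, belongs to no other human mature name in the table, and neither does that of miR-371-5p, CUCAAAC. The seed of miR-367, AUUGCAC, is shared with miR-25, miR-32, miR-363, miR-92a and miR-92b.

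The 5 hairpins of miR-302/miR-367 lie within 684 bases at chr4:112647874-112648557 on the minus strand, in the RefSeq span of LARP7 and of the noncoding host gene MIR302CHG. The 3 hairpins of miR-371 to miR-373 lie within 1099 bases at chr19:53787675-53788773 on the plus strand, next to the large chromosome 19 miRNA cluster. Hairpins of 1 cluster are copied from a shared primary transcript, so their mature products are not independent measurements.

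The quantity measured was the quantification cycle (Ct), the PCR cycle at which fluorescence crossed a threshold, so a lower Ct means more product and 1 cycle was taken as a doubling. A well could also be undetermined, with no Ct. A Ct of 35 was taken as the limit of quantification. The 2 pairs of samples differed in overall reading: 723 of 740 miRNA wells were under Ct 35 in shDDX1, 732 in shNS, 591 in NCS and 521 in untreated. Water was loaded in 9 wells per sample, of which 7 gave a Ct in shDDX1, 6 in shNS and 0 in both NCS and untreated. Triplicate calibrator wells had an SD of 0.191 cycles, which put 2 SD of a difference between wells at 0.541 cycles. Each group having 1 sample, no difference could be checked against replicates, and neither p-values nor standard errors are given.

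The pluripotency miRNAs read late or not at all in the NCS pair and earlier in the knockdown pair. Under Ct 35 were 13 of 13 assays in shDDX1, 12 in shNS, 9 in NCS and 4 in untreated. Over all miRNA wells the same shares were 97.7% in shDDX1, 98.9% in shNS, 79.9% in NCS and 70.4% in untreated. No Ct at all was recorded for 3 of the 13 assays in NCS and for 6 in untreated.

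In the miR-302/miR-367 cluster the earliest readings in shDDX1, shNS and NCS were those of miR-302a and miR-302b, and in untreated cells that of miR-302a*. miR-302b read Ct 27.0 in shDDX1, 25.95 in shNS and 32.9 in NCS, and was undetermined in untreated cells. miR-302a read 26.8 in shDDX1, 26.8 in shNS, 33.6 in NCS and 35.2 in untreated cells. Their sister miRNAs with the same seed read later in the knockdown pair and were undetermined in the other pair: miR-302c read 31.2 in shDDX1 and 28.7 in shNS. miR-302d read 32.6 in shDDX1 and 32.1 in shNS and was likewise undetermined in NCS and untreated. The assays for near-identical main arms thus spanned 5.85 cycles in shDDX1 and 6.18 in shNS.

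miR-367, transcribed with the miR-302 hairpins but with another seed, read 30.7 in shDDX1, 30.1 in shNS and 34.03 in NCS and had no Ct in untreated cells. The minor arms of the cluster read later than miR-302a and miR-302b in the knockdown pair. miR-302d* read 29.1 in shDDX1, 28.1 in shNS, 34.8 in NCS and 38.7 in untreated cells. miR-302c* read 33.5 in shDDX1, 29.9 in shNS and 36.5 in NCS, with no Ct in untreated cells. miR-302a*, the sole assay of the 13 on panel II, read 31.8 in shDDX1, 32.6 in shNS, 34.3 in NCS and 34.9 in untreated cells.

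Within miR-371 to miR-373, both arms of miR-373 were the earliest readings in shDDX1, shNS and NCS. The minor arm miR-373* read 26.3 in shDDX1, 25.9 in shNS, 33.2 in NCS and 33.3 in untreated cells. The main arm miR-373 read 27.2 in shDDX1, 27.3 in shNS, 32.2 in NCS and 32.04 in untreated cells. Each of these arms was among the 3 earliest members in untreated cells, where miR-373 was first. miR-372, which shares its seed with miR-373, read 31.8 in shDDX1, 31.5 in shNS, 33.8 in NCS and 32.8 in untreated cells. The range of miR-372 in Ct was narrow, whereas miR-371-5p read 31.2 in shDDX1, 28.2 in shNS, 33.7 in NCS and 39.2 in untreated cells. Over all miRNA wells with a Ct the median was 27.9 in shDDX1, 27.5 in shNS, 31.3 in NCS and 31.8 in untreated cells. A narrow range in Ct is therefore not a steady level relative to other miRNAs. miR-371-3p read 28.3 in shDDX1 and 37.9 in shNS, and was undetermined in NCS and untreated.

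**Figure D1:**
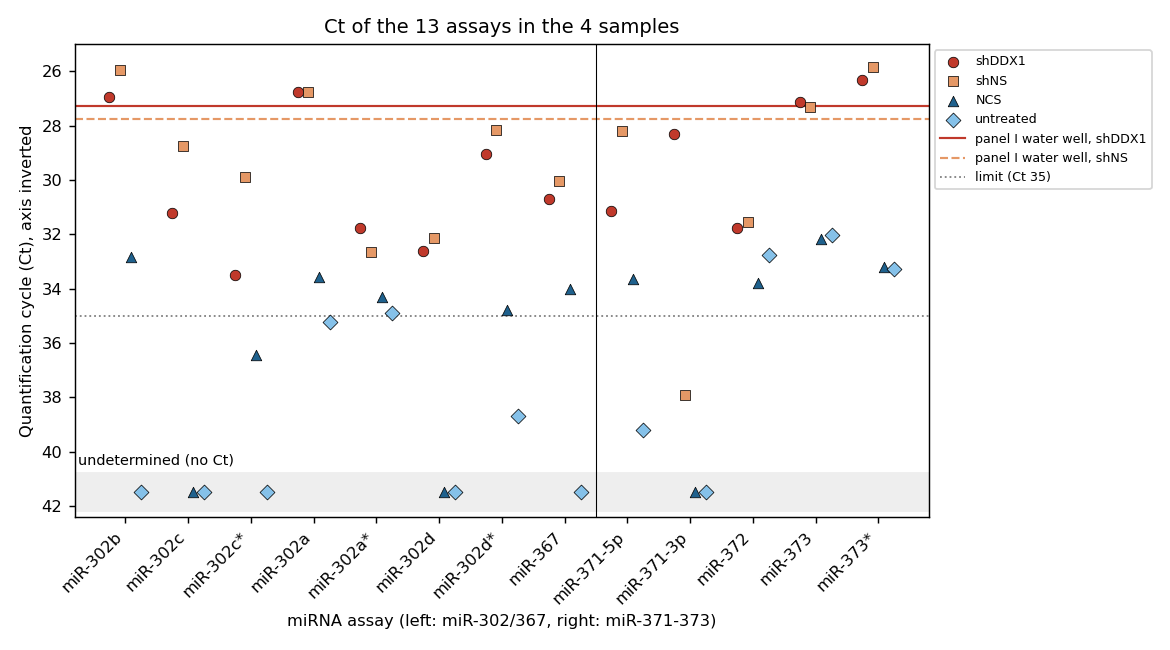
Quantification cycle (Ct, inverted axis, so that more product is higher) of the 13 assays in the shDDX1, shNS, NCS and untreated samples, 1 point per well; points in the grey strip had no Ct, horizontal lines give the earliest panel I water well of shDDX1 and shNS and the dotted line the limit of Ct 35. In shDDX1 and shNS 4 panel I assays lie above the water line of their own sample, and 4 assays lie above the limit in untreated cells.

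In the order of Ct, miR-373*, miR-302a, miR-302b and miR-373 were the first 4 in both samples of the knockdown pair. In shDDX1 each of these differed from the next by under 0.541 cycles, so neighbours in the order are not resolved there. The first and last of them, miR-373* at 26.3 and miR-373 at 27.2, were further apart than that. In shNS miR-373* and miR-302b were 0.0945 cycles apart, and the next gaps, 0.809 and 0.566 cycles, were larger than the well-to-well spread. In NCS the assays from second to ninth place, miR-302b to miR-302d*, each differed from the next by under 0.541 cycles. In untreated cells miR-373 led miR-372 by 0.728 cycles, and miR-372 and miR-373* were not separated. Different assays amplify with different efficiency, so an order of Ct is not an order of copy number.

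Against the earliest water wells of the knockdown pair, few of the readings stood clear. Of the water wells, the one at row P, column 22 of panel II read 26.5 in shDDX1 and 26.6 in shNS, and the one at row P, column 2 of panel I read 27.3 in shDDX1 and 27.8 in shNS. All other water wells read 34.8 or later in shDDX1 and 34.6 or later in shNS, or gave no Ct. Earlier than the earliest water well were 1 of the 13 assays in shDDX1, miR-373*, and 2 in shNS, miR-373* and miR-302b. Over all miRNA wells 34.5% in shDDX1 and 38.9% in shNS read earlier than it. Against the panel I water well alone, 4 of the 12 panel I assays read earlier in each sample, namely miR-302a, miR-302b, miR-373 and miR-373*, beside 52.5% of panel I miRNA wells in shDDX1 and 66.9% in shNS. The other 8 panel I assays read later than this well. All of these counts rest on the row P wells, which read well before every other water well. The median of the water wells with a Ct was 35.7 in shDDX1 and 35.4 in shNS. Against that median 13 of the 13 assays read earlier in shDDX1 and 12 in shNS. Over all miRNA wells 97.7% in shDDX1 and 98.9% in shNS were under Ct 35, which is slightly earlier than that median. The share of all wells earlier than the median itself was not computed. Whether sample had reached the row P wells is not known, and whether the Ct of the assays reflects the named miRNA was not tested. In NCS and untreated cells no water well gave a Ct, so each assay with a Ct there read earlier than all water wells. These readings were at Ct 32.04 or later. Without a Ct were 3 of the 13 assays in NCS and 6 in untreated cells, beside 58 and 98 of 740 miRNA wells.

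Assays for miRNAs foreign to bone gave a second yardstick. Markers of liver, muscle, neurons and pancreas, 12 assays in all, were under Ct 35 in 12 of 12 cases in shDDX1 and in shNS, in 9 in NCS and in 7 in untreated cells. Their readings ran between 23.5 and 33.05 in shDDX1 and between 22.6 and 32.7 in shNS, a range that overlaps that of the pluripotency miRNAs in both samples. The liver marker miR-122, for example, read 30.1 in shDDX1, 28.6 in shNS, 33.4 in NCS and 32.8 in untreated cells. In contrast, 10 of 10 mesenchymal miRNAs such as miR-21 and miR-221 were under Ct 35 in all 4 samples, with the latest at 30.1 in untreated cells. Blood and epithelial markers, 5 assays each, were all under Ct 35 in shDDX1 and shNS as well. In these 2 samples the pluripotency miRNAs thus overlapped miRNAs that this cell type is not known for. That range is wide and also holds the median of all miRNAs, 27.9 in shDDX1 and 27.5 in shNS, so overlap separates little. In untreated cells 4 of the 13 pluripotency assays were under Ct 35, a smaller share than the 7 of 12.

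The first comparison asks what DDX1 knockdown does to these miRNAs. Levels were minus Ct, relative to the sample's own mean over the 499 miRNA wells under Ct 35 in all 4 samples, and a log2 ratio is a difference of such levels. Of the 13 assays, 12 were under Ct 35 in both shDDX1 and shNS, as were 97.2% of all 737, and none was under 35 in shNS alone, against 1.76% of all. At a threshold of 2-fold, 3 of the 12 were lower in shDDX1 and 1 was higher, against a background of 17.3% lower and 11% higher over all 716 miRNAs quantified in both samples. The median log2 ratio was -0.26 for the 12 assays and 0.04 for all 716. The median of the 12 turned to 0.16 with each panel centred on its own wells, 0.11 with plates set to their calibrator wells and 0.04 with neighbouring wells subtracted, so it has no settled direction. Of the 12, 11 were on panel I, where all miRNA wells had a median of -0.42.

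The 3 lower assays were miR-302c* with a log2 ratio of -3.29 or 9.78-fold lower, miR-371-5p with -2.65 or 6.27-fold lower, and miR-302c with -2.16 or 4.47-fold lower. These differences exceed the 0.385 SD of a log2 ratio found for the 7 assays present on both panels, which is technical spread only. Both arms of the miR-302c hairpin were among the 3, whereas the arms of miR-302a and miR-302d were not on the lower side of the threshold. Of the shared-seed group, miR-302c was the sole lower one, and miR-302b had a log2 ratio of -0.71, miR-302d -0.16, miR-372 0.05, miR-302a 0.31 and miR-373 0.48. The co-transcribed miR-367 stood at -0.35, miR-302d* at -0.60 and miR-373* at -0.15. miR-302a* was the 1 assay above the threshold, with a log2 ratio of 1.17 or 2.25-fold higher. Each assay past the threshold read later than the earliest water well of its panel in both samples. In shDDX1 and shNS the lag was 6.20 and 2.14 cycles for miR-302c*, and 3.87 and 0.45 for miR-371-5p. It was 3.92 and 0.99 for miR-302c, and 5.28 and 6.05 for miR-302a*.

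**Figure D2:**
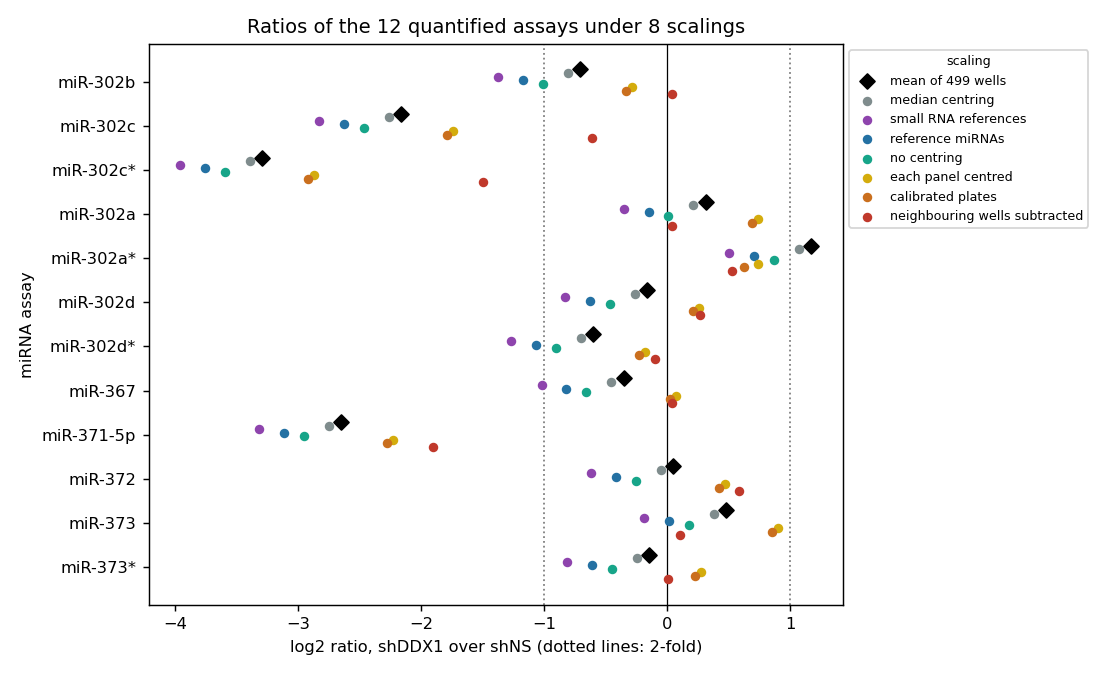
Log2 ratio of shDDX1 over shNS for the 12 quantified assays, one mark per scaling; the black diamond is centring on the mean of 499 wells and dotted lines mark 2-fold. miR-302c, miR-302c*, miR-371-5p and miR-302d* lie below 0 under all 8 scalings, and miR-302a* passes 2-fold under centring on the mean or median of these wells and under no other scaling shown.

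The size of these ratios moved with position on the plate. In panel I the median log2 ratio over all miRNA wells was -0.82 in the middle columns, 7 to 18, and -0.22 in the outer columns, and on panel II it was 0.46. miR-302c, miR-302c* and miR-371-5p sat in columns 11, 12 and 17 of panel I, and miR-302a* on panel II. Among middle columns 3 of the 5 quantified assays were at least 2-fold lower, against 41.1% of 185 miRNA wells there. In the outer columns 0 of 6 were, against 16.6% of 181 wells. How far plate position contributes to the 3 lower readings was not tested beyond these values.

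**Figure D3:**
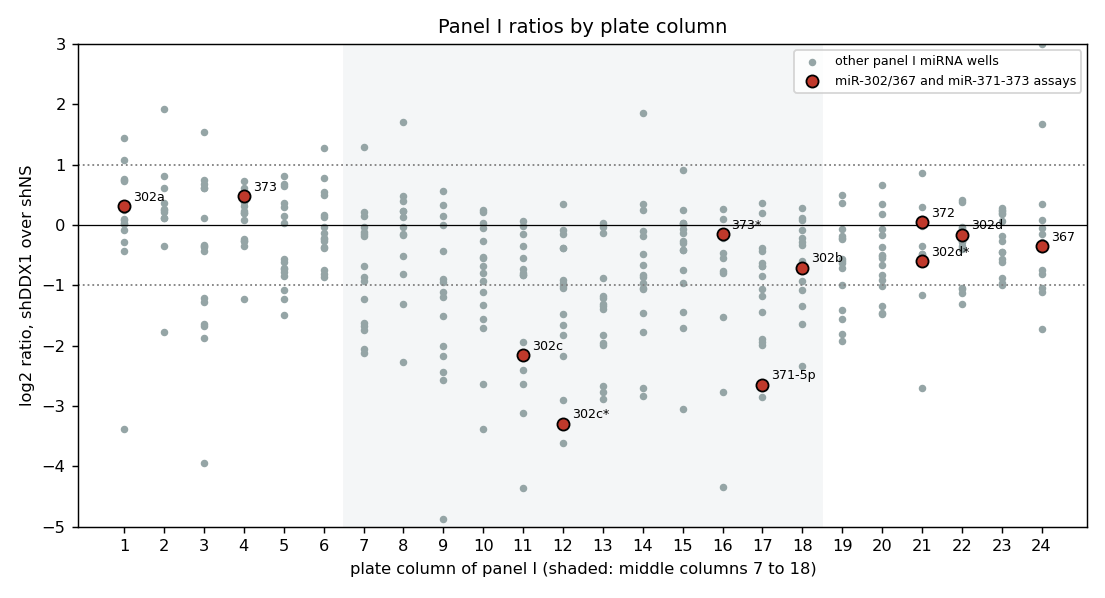
Log2 ratio of shDDX1 over shNS in panel I by plate column, one point per miRNA well, with the 11 quantified cluster assays of this panel in red and 4 wells outside the plotted range left out. The wells of the shaded middle columns lie lower as a whole, with a median of -0.82, and the 3 lowest cluster assays, at -3.29, -2.65 and -2.16, are among them.

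Neighbouring wells placed each of the lower assays differently. Around miR-302c, wells within 2 rows and 2 columns had a median log2 ratio of -1.55, and 9 of 24 were as low as miR-302c or lower. Around miR-302c* the median was -1.80, and 1 of 24 was as low. Around miR-371-5p the median was -0.74, and 3 of 24 were as low. After subtraction of these medians miR-302c stood at -0.61, inside 2-fold, miR-302c* at -1.49 and miR-371-5p at -1.91. Over 8 scalings the ratio ran between -2.83 and -0.61 for miR-302c, between -3.96 and -1.49 for miR-302c* and between -3.32 and -1.91 for miR-371-5p. That of miR-302d* also stayed below 0, between -1.27 and -0.10. Its end nearest 0 was inside the SD of 0.385, and 8 of its 22 quantified neighbours were as low, so no direction is given for it. The ratio of miR-302a* ran between 0.51 and 1.17, and the median of its own neighbours was 0.64. Those of miR-302a, miR-302b, miR-302d, miR-367, miR-372, miR-373 and miR-373* changed sign between scalings, so no direction is given for them.

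miR-371-3p was the 1 assay under Ct 35 in shDDX1 and not in shNS, a pattern shown by 4 of 737 assays, or 0.543%. It was at least 128-fold higher in shDDX1, taking Ct 35 as the bound in shNS, and at least 171-fold with each panel centred on its own wells. The value rests on the single late reading of 37.9 in shNS. The reading of 28.3 in shDDX1 itself came 1.02 cycles after the panel I water well of that sample. All 14 wells near it were under Ct 35 in both samples, with a median log2 ratio of 0.31. In NCS and untreated cells the same assay gave no Ct, although 13 and 11 of these 14 wells were under 35 there, so shDDX1 was the sole sample of the 4 in which miR-371-3p was quantified.

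The arms of a hairpin come from the same precursor, and their difference in Ct was compared between samples as a description. For miR-371 the 5p arm read 2.86 cycles after the 3p arm in shDDX1 and -9.69 cycles, that is before it, in shNS. For miR-302c the 5p arm lagged by 2.28 cycles in shDDX1 and 1.15 in shNS. The 5p arm of miR-302d led in both samples, at -3.55 cycles in shDDX1 and -3.98 in shNS, and that of miR-373 led at -0.84 in shDDX1 and -1.47 in shNS but lagged by 1.03 in NCS and 1.25 in untreated cells. For miR-302a the lag was 5.03 cycles in shDDX1 and 5.89 in shNS, against 0.75 in NCS and -0.33 in untreated cells. The arm that read earlier thus differed between samples for miR-373, and for miR-371 with a 3p reading of 37.9 in shNS, past Ct 35. For miR-302a it was not resolved in untreated cells, where the gap was under 0.541 cycles and the main arm was past Ct 35, and its arms sat on different panels.

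The second comparison asks what DNA breakage by neocarzinostatin does to these miRNAs. Only 4 of the 13 assays, miR-372, miR-373, miR-373* and miR-302a*, were under Ct 35 in both NCS and untreated cells, against 67.6% of all assays. Of the 4, 1 was at least 2-fold lower after NCS and 0 were higher, against a background of 22.3% lower and 16.9% higher over 498 miRNAs. miR-372 had a log2 ratio of -1.77, or 3.40-fold lower, miR-373 -0.86, miR-373* -0.65 and miR-302a* -0.15. The median log2 ratio of all 498 was -0.38. By well it was 0.30 on panel I, with 1.21 in middle and -0.16 in outer columns, and -0.84 on panel II. The SD from assays on both panels was 0.795. Most of it came from miR-423-5p, whose log2 ratio differed by 2.71 between panels. Against the pooled median miR-372 alone lay more than 1 such SD lower. That depends on the reference, as miR-302a* was on panel II and the others on panel I. With each panel centred on its own wells, miR-373 stood at -1.67 and miR-373* at -1.45, beside -2.57 for miR-372 and 0.67 for miR-302a*.

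miR-372 also stood apart from the wells around it. None of the 17 quantified wells near it was as low: the lowest was -0.74 and the median 0.51. Over 8 scalings its ratio ran between -2.57 and -0.98, and it missed 2-fold when the small RNAs U6, SNORD38B and SNORD49A served as reference. Relative to the sample mean, its level was -4.43 in NCS and -2.67 in untreated cells, beside -5.65 in shDDX1 and -5.70 in shNS. The ratio of miR-373 stayed below 0, between -1.67 and -0.08, but its end nearest 0 was inside the SD of 0.795. Those of miR-373* and miR-302a* changed sign between scalings. No direction is given for these assays.

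A further 5 of the 13 assays, miR-302a, miR-302b, miR-302d*, miR-367 and miR-371-5p, were under Ct 35 in NCS and not in untreated cells, against 12.2% of all 737 assays. The converse held for 0 of the 13 and for 2.71% of all assays. With Ct 35 as the bound in untreated cells, miR-302b was at least 2.66-fold higher, miR-302a 1.61-fold, miR-371-5p 1.53-fold and miR-367 1.18-fold, and no fold could be given for miR-302d*. With each panel centred separately only miR-302b kept a bound above 1, at 1.52-fold. These assays read between 32.9 and 34.8 in NCS, close to the limit. The remaining 4, miR-302c, miR-302c*, miR-302d and miR-371-3p, were not quantified in either sample.

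Detection in this pair also varied over the plate. In the middle columns of panel I 84.9% of miRNA wells were under Ct 35 in NCS, against 59.4% in untreated cells, and in the outer columns 84.2% in NCS, against 77.6% in untreated cells. Of the 5 cluster assays in the middle columns 3 were under 35 in NCS and 1 in untreated cells. Of the 7 in the outer columns 5 were in NCS and 2 in untreated cells. Around miR-371-5p 24 of 24 wells were under 35 in NCS and 12 in untreated cells, and around miR-302b 20 in NCS and 13 in untreated cells. The part of plate position in the 5 assays under Ct 35 in NCS alone was not tested.

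The authors' deposited fold table gives larger NCS values for several of these miRNAs. In the authors' deposited table miR-302c is 112-fold and miR-371-5p 79.9-fold higher after NCS, miR-302d* 6.92-fold, miR-302b 3.74-fold, miR-302d 2.82-fold and miR-367 2.65-fold. Of these 6, miR-302c and miR-302d had no Ct in either sample, miR-302b and miR-367 had none in untreated cells, and miR-302d* and miR-371-5p read 38.7 and 39.2 there. The authors' deposited table lists miR-372 at 0.431, lower after NCS as in the Ct values. It lists miR-302a at 1.12, which is below the centred bound of 1.61-fold given above. The deposited folds are 1.58 for miR-302a*, 0.904 for miR-373* and 0.784 for miR-373. For miR-302c* the authors' deposited table holds 2.08e-10, which goes with a missing value in untreated cells and is not a usable fold.

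**Figure D4:**
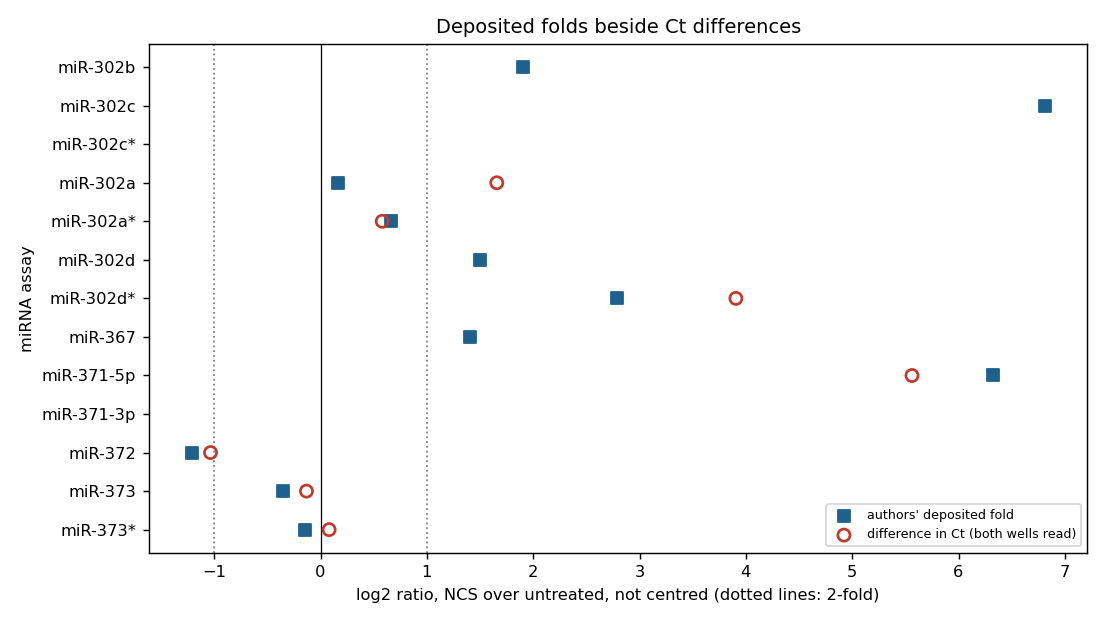
Log2 of the authors' deposited fold of NCS over untreated (squares) and the difference in Ct where both wells gave one (circles), for the 13 assays. Dotted lines mark 2-fold. The circles are not centred, whereas the squares carry the authors' own shifts of Ct, which differ between assays and samples. miR-302b, miR-302c, miR-302d and miR-367 have a square and no circle, miR-302c* is left out because its deposited fold rests on a missing value, and miR-371-3p has neither.

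MicroRNAs that share the seed but lie outside the clusters were set beside the members. Of miR-302e and miR-520a-3p to miR-520e, 6 of 6 were quantified in the knockdown pair, with 0 lower, 1 higher and a median log2 ratio of 0.33. The highest was miR-520d-3p at 1.11 and the lowest miR-520c-3p at -0.52. In the NCS pair 4 of the 6 were quantified and 1 was lower, again miR-520d-3p, at -2.59, while the highest was miR-520b at -0.03. The share lower over all miRNAs was 17.3% in shDDX1 and 22.3% after NCS, so counts over so few assays are not set apart from the background.

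A group of 7 miRNAs carries the related seed AAAGUGC, shifted by 1 base, among them the proliferation-linked miR-17, miR-20a and miR-106b. In the knockdown pair 0 were lower and 0 higher, between -0.36 for miR-519d and 0.50 for miR-106a. After NCS 6 were quantified and 3 were at least 2-fold higher, miR-17 at 1.47, miR-20a at 1.37 and miR-106b at 1.07, with miR-106a lowest at -0.68, beside 16.9% higher over all miRNAs. The chromosome 19 cluster, which neighbours miR-371 to miR-373 and is expressed mainly in placenta, had 47 assays. In shDDX1 8 of these 47 were lower, 5 were higher and the median was 0.14, and after NCS 6 of 35 were lower, 5 were higher and the median was -0.31. The shares over all miRNAs were 17.3% lower and 11% higher in shDDX1, and 22.3% lower and 16.9% higher after NCS.

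For the 7 assays with a Ct in all 4 samples, the most similar profiles among 621 such assays were found by the root mean square difference of centred levels. miR-300 lay nearest to miR-373, at 0.258, and miR-99a* next, at 0.299. miR-142-5p lay nearest to miR-302a at 0.414, miR-554 to miR-373* at 0.441, miR-155* to miR-372 at 0.488 and miR-580 to miR-302a* at 0.517. The nearest profiles of miR-371-5p, miR-487b at 0.685, and of miR-302d*, miR-433 at 0.897, were less alike. The second nearest were miR-199b-5p for miR-302a, miR-548l for miR-302a*, miR-150 for miR-302d*, miR-133b for miR-371-5p, miR-600 for miR-372 and miR-518c* for miR-373*. Fellow members were left out of this search, so likeness among the members themselves was not examined. Each likeness rests on 4 samples that share a plate layout, with 1 sample per group.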

How the data were processed

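The authors deposited 3 tables of the same wells: Ct, shifted Ct, and a linear ratio of each sample over its control (fold). Per the labels, the RNA was Trizol extract, and Exiqon reagents with SYBR Green were used on 2 human panels of 384 wells. Instrument and threshold settings are not given in the sources used here. Ct was used as deposited, and 2 columns of folds of control samples were not used. In the shifted table the values of the knockdown pair were moved by -0.789 cycles for panel I wells and by 0.789 for panel II wells. In the NCS pair the 13 assays, where both tables gave a value, were moved by amounts between -6.64 and -0.575 in NCS and between -8.14 and -0.491 in untreated cells, a step whose making is not given in the sources used here.

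Levels were centred on 499 wells, 67.4% of the miRNA wells, and miRNAs on both panels were averaged. No test was run, because each group has 1 sample. Every member was named, along with the lists' extreme assays and the 2 nearest profiles. Members and lists were chosen with earlier results of these data known, and middle and outer columns were added after seeing the data. Older assay names were paired with RefSeq arms, miR-371 with miR-371a. The calculation was tested on simulated wells with Python 3.11.15, numpy 2.4.6 and pandas 2.3.3. Sensitivity alternatives covered centring, table, limit, threshold and arm.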

Additional observations from a re-analysis of the deposited data

Results flagged for a closer look

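In the NCS pair, 7 member wells without a Ct hold a number in the authors' deposited shifted Ct table, which the comparisons above did not use. They are miR-302c and miR-302d in NCS, which is 2 of the 3 member wells without a Ct there, and miR-302b, miR-302c, miR-302d, miR-367 and miR-371-3p in untreated cells, which is 5 of 6. Over all miRNAs the same holds for 50 of 58 such wells in NCS, or 86.2%, and for 75 of 98 in untreated cells, or 76.5%. In the authors' deposited shifted table miR-302c reads 28.4 in NCS and 35.2 in untreated cells, and miR-371-3p reads 28.6 in untreated cells. No water well or control sample gives a level for these numbers to be set against.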

How the results depend on the processing

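No paired analysis was possible because there is 1 sample a group. For shDDX1 over shNS, the 3 lower assays became 6 with small RNA references, 5 with reference miRNAs and 5 at 1.5-fold, where the lower share of all miRNAs was 35.9%, 29.3% and 27.9%, against 17.3%. The count of higher assays, 1 with miR-302a*, was 0 with small RNA references, reference miRNAs, no centring, each panel centred, calibrated plates, neighbouring wells subtracted, either deposited table of the authors, a limit of Ct 32, a threshold of 4-fold or without star arms, and 2 with no Ct limit. For NCS over untreated, the count of lower assays, 1 with miR-372, was 0 with small RNA references and at 4-fold, and 3 of 4 with each panel centred and at 1.5-fold, where 20.5% and 40.56% of all miRNAs were lower; the 0 higher assays became 2 with no Ct limit. A limit of Ct 32 left no assay quantified in this pair. Over all miRNAs, small RNA references moved the median log2 ratio by -0.67 for shDDX1 over shNS and by 0.79 for NCS over untreated, and reference miRNAs by -0.46 and 0.33. Counts earlier than water, 1 in shDDX1 and 2 in shNS, were 4 and 4 against the own panel's water well, 13 and 12 against the median water well, and 1 and 1 among seed-sharing assays outside the clusters. For single assays, 91 values moved by less than the technical spread and 53 by more, and none changed sign while past 2-fold. The causes were not tested. Depth is not defined for Ct, and readings near 35 or near water limit precision.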
